A study of Mus musculus with 6 samples.

Results

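Heat shock proteins were examined in macrophages sorted from skin wounds of young and aged mice. The 10 genes described were those taken by symbol, namely Hspa1a, Hspa1b, Hspa8, Hsp90aa1, Hsp90ab1, Hsph1, Dnajb1, Dnaja1, Hspe1 and Hspd1. All 10 were found among the 15168 genes of the deposited count table, and all 10 passed the filter on low counts that left 11878 genes. The genes were grouped as cytosolic heat shock proteins, but Hspd1 and Hspe1 encode HSP60 and HSP10, the chaperonin of the mitochondrial matrix, so 8 of the 10 encode proteins of the cytosol and nucleus.

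The samples were F4/80+ CD64+ macrophages sorted by flow cytometry from full-thickness wounds on the dorsum of female wild-type C57BL6/J mice at Day 3 after wounding. There were 3 samples from young mice, aged 12 weeks, and 3 from aged mice, aged 24 months. Every sample came from a wound, made under anaesthesia with pain relief in the methods of the study, and unwounded skin was not analysed here. The sample titles also carry a letter (set A, B or C) that occurs once in each age, and the labels do not say what a set marks. The labels do not say either whether samples came from separate animals, so p-values measure only the spread between these samples. In the methods of the study, wounds were minced and agitated in warm enzyme solution before sorting, and every sample of both ages passed through that step.

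Heat shock proteins hold unfolded or newly made proteins in a state that can fold. HSP70 proteins bind short hydrophobic stretches in a cycle of ATP hydrolysis, which J-domain proteins start and nucleotide exchange factors end, and HSP90 proteins take over many signalling proteins at a later step. Hspa8 and Hsp90ab1 are the constitutive forms, whereas Hspa1a, Hspa1b and, in part, Hsp90aa1 are induced by heat, oxidants and damaged proteins through the transcription factor HSF1. HSF1 binds heat shock elements, which are inverted repeats of a short unit found near the start of its target genes.

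Promoter sequences are shown for Hspa1a and Hspa1b, the inducible HSP70 genes, and shorter stretches for other genes of the group in which a heat shock element was found. RefSeq promoter windows on GRCm38.p6, from 250 bases before to 50 bases after each annotated start, were found for 7 of the 10 genes (Hspa1a, Hspa1b, Hspe1, Hspd1, Hsph1, Dnaja1 and Dnajb1), in 12 windows. A pair of units was searched as GAANNTTC or TTCNNGAA, which are each their own reverse complement, so that a search of 1 strand covers both. A run of 3 alternating units, which always holds 2 overlapping pairs, was searched as well. The bases before the start of Hspa1a (chr17:34972157-34972406, minus strand) and Hspa1b (chr17:34959239-34959488, minus strand) are given 5′ to 3′, with the matched pair in capitals.
Hspa1a: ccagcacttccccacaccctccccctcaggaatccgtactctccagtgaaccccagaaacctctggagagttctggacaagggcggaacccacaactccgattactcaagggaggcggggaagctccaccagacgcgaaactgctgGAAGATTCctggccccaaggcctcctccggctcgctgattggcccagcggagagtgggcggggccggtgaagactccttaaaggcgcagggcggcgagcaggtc
Hspa1b: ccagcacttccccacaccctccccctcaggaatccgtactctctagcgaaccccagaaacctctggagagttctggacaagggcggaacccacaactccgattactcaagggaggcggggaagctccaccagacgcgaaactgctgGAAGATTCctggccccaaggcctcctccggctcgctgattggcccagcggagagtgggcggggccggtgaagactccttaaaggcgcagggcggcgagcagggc

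These stretches differed at 3 of 250 bases, and both held a single pair, 104 bases before the start. Stretches of 30 bases around the matches of Hspe1 (chr1:55088053-55088082, plus strand), Hsph1 (chr5:149636287-149636316, minus strand) and Dnaja1 (chr4:40722333-40722362, plus strand) are given in the same way.
Hspe1: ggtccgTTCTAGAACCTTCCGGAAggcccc
Hsph1: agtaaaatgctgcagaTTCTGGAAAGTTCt
Dnaja1: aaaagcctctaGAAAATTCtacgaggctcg

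Hspe1 held 3 overlapping pairs, and the same bases lay in 1 of the 2 windows of Hspd1, its neighbour on the other strand, so that this match belongs to both chaperonin genes. The match shown for Hsph1 lay 36 bases after the start in the first of its 2 windows, and a further pair lay 33 bases before it. A pair was present in 7 of the 12 windows and in 15.1% of all 32851 promoter windows of the same length. A run of 3 units was present in 4 of the 12 windows, those of Hspe1, Hspd1 and Hsph1, and in 0.603% of all windows. The 2 windows of Hsph1 overlap and hold the same matches, and Hspe1 and Hspd1 share theirs. The counts of windows, for pairs as well, therefore count the same bases more than once. Neither motif was found in the 2 windows of Dnajb1, which says only that these letters are not within these bases. A match is a description of the sequence and was not tested for binding.

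**Figure D1:**
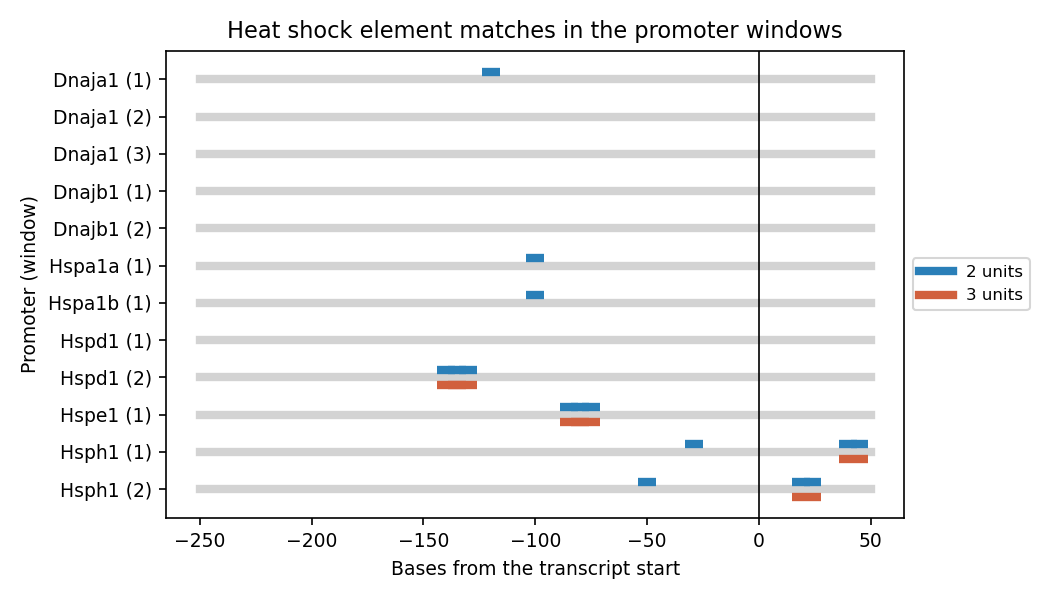
Positions of heat shock element matches (x axis, bases from the transcript start) in the 12 promoter windows of 7 genes (y axis, window number in parentheses). Grey lines span each window, blue bars mark pairs and red bars mark runs of 3 units. The pairs of Hspa1a and Hspa1b lie at the same position, and only Hspd1, Hspe1 and Hsph1 hold runs of 3 units.

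Hspa1a and Hspa1b were among the genes with the most counts in these cells, before any correction for transcript length. They ranked between the first and the fourth place of all genes in the B and C samples of both ages, by CPM (counts scaled to the TMM-corrected library size). In set A, Hspa1a ranked at 18 in the young and 39 in the aged sample, and Hspa1b at 26 and 58. Library totals ran from 15270103 to 17927483 counts, so that a single count was worth 0.0553 to 0.0701 CPM, and the lowest value of any of the 10 genes, Hspe1 in aged sample A, still rested on 105 counts.

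The 10 genes took 1.43%, 6.31% and 7.68% of all counts in young samples A, B and C and 0.876%, 5.30% and 6.06% in aged samples A, B and C. Set A was lowest in both ages and the aged sample was the lower of each set, but the ages overlapped. The test below took no account of the set letter. The mean share was 5.14% ± 3.29 (SD, n = 3) in young and 4.08% ± 2.80 in aged samples, which did not differ beyond the spread of the samples (two-sided exact permutation test, p = 0.5, where the smallest p that 3 against 3 samples allow is 0.1). Hspa1a and Hspa1b made up most of it, with 0.978%, 5.58% and 6.65% of counts in the young samples and 0.583%, 3.95% and 4.87% in the aged samples. The other 8 genes ran from 0.293% to 1.34%.

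**Figure D2:**
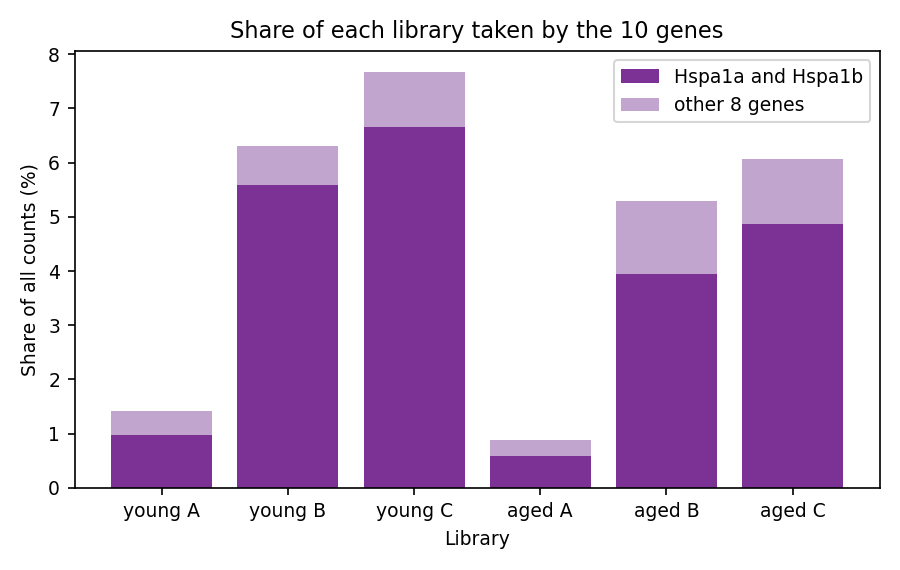
Share of all counts in percent (y axis) taken by Hspa1a and Hspa1b (dark) and by the other 8 genes (light) in each library (x axis). Both set A libraries lie under 1.5%, and the other 4 libraries lie between 5.30% and 7.68%.

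No difference between the ages passed the test for any of the 10 genes. In the edgeR quasi-likelihood test, which set the aged against the young samples, 0 of 10 genes had an adjusted p under 0.05, while 17.7% of all tested genes did. At an unadjusted p under 0.05 the count was also 0 of 10, against 34.5% of all tested genes, DESeq2 and limma-voom each gave 0 at the adjusted threshold, and at the unadjusted threshold DESeq2 gave 0 and limma-voom gave 1, Dnajb1. The CPM values of young and aged samples overlapped for all 10 genes, whereas they did not overlap for 38.2% of all genes. The intervals were wide. Only Hspe1, Hspa1a and Hspa1b had a log2 fold change below 0, and the 95% interval of all 10 genes included 0.

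A second pattern cut across the ages. For each of the 10 genes, aged sample A had the lowest CPM of the 6 samples and young sample A the second lowest, so that both set A samples lay below the other 4 in 10 of 10 genes, against 5.75% of all tested genes. The 10 genes were measured in the same libraries and are not independent of each other, and set A was singled out after the values were seen. In a model with age and set as terms, added after the data were seen, the joint edgeR test of set had an adjusted p under 0.05 for 3 genes, or 0.0253% of those tested. They were Hspa1a, Hspa1b (adjusted p = 0.0075 each) and Krt14, a keratinocyte keratin that stood at 80.2 CPM in aged sample B and under 1 CPM in the other 5 samples. For the other 8 heat shock genes the adjusted p of set ran from 0.201 to 0.558.

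**Figure D3:**
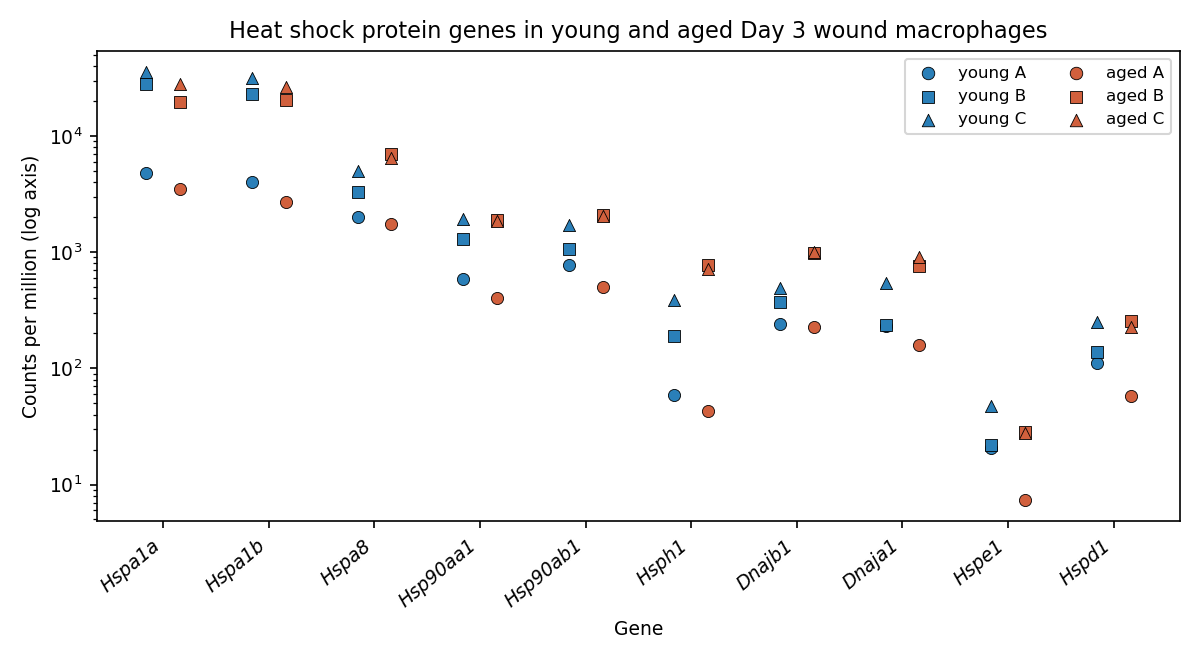
CPM of each of the 10 genes (x axis) on a log axis (y axis), with 1 point per sample, blue for young and red for aged, and the shape for the set. The circles of set A are the lowest points of both ages for every gene, down to 7.36 CPM for Hspe1, and the ages overlap throughout.

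Hspa1a encodes the stress-inducible HSP70 and is a gene of 1 exon at chr17:34969190-34972156 (mm10, minus strand). It was at 4797, 28138 and 35434 CPM in young samples A, B and C and at 3519, 19764 and 27764 CPM in aged samples A, B and C. Samples B and C were several times above set A in each age, and the aged sample was the lower of each set. The log2 fold change of aged against young was -0.42 (standard error, SE, 0.72, 95% interval -2.03 to 1.18, edgeR adjusted p = 0.712). That fit took no account of the set letter, and in a fit with the letter as a block the adjusted p was 0.0958.

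Hspa1b, at chr17:34956436-34959238 on the same strand, encodes a nearly identical HSP70. It was at 4000.5, 23111 and 31730 CPM in young and 2713, 20530.1 and 26140 CPM in aged samples, in the order A, B and C. The order of the samples was close to that of Hspa1a, with a log2 fold change of -0.25 (SE 0.76, edgeR adjusted p = 0.843). Of all 100-base windows of the Hspa1b transcript, 49.9% were found unchanged in Hspa1a, and 47.1% of those of Hspa1a in Hspa1b, so reads can be divided between them by the counting and their separate values are uncertain. Their sum does not depend on that division, and it had a log2 fold change of -0.34 (SE 0.74, edgeR adjusted p = 0.777).

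Hspa8 encodes the constitutive HSC70, which also takes part in uncoating of clathrin vesicles (chr9:40800984-40810087, plus strand). It was at 2007, 3292 and 5036 CPM in young and 1737, 6941 and 6462 CPM in aged samples A, B and C. Aged B and C were the highest of the 6 samples and aged A the lowest, and the log2 fold change was 0.55 (SE 0.47, 95% interval -0.48 to 1.58, edgeR adjusted p = 0.433). For Hspa8, 62.8% of 100-base windows were found in 7 other gene models, 58.5% in Gm15459 alone, so its count is uncertain to that extent.

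The ratio of inducible to constitutive HSP70 counts, Hspa1a and Hspa1b over Hspa8, was 4.38, 15.6 and 13.3 in young and 3.59, 5.81 and 8.34 in aged samples A, B and C. In each set the aged sample had the lower ratio, but young A lay below aged B and C. The mean was 11.1 ± 5.92 in young and 5.91 ± 2.38 in aged samples (SD, n = 3), which did not pass a two-sided exact permutation test (p = 0.3). The windows that Hspa8 shares with other gene models make this ratio uncertain as well.

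Hsp90aa1, the inducible HSP90 alpha (chr12:110690605-110702728, minus strand), was at 588, 1308 and 1917 CPM in young and 406, 1876 and 1847 CPM in aged samples A, B and C. Hsp90ab1, the constitutive HSP90 beta (chr17:45567775-45573271, minus strand), was at 772, 1059 and 1706 CPM in young and 497, 2087 and 2057 CPM in aged samples. Both genes were lowest in aged A, and young C lay above aged B and C for Hsp90aa1 and below them for Hsp90ab1. Their log2 fold changes were 0.11 (SE 0.53, edgeR adjusted p = 0.899) and 0.39 (SE 0.46, edgeR adjusted p = 0.583). The ratio of Hsp90aa1 to Hsp90ab1 counts was 0.762, 1.24 and 1.12 in young and 0.817, 0.899 and 0.898 in aged samples, so that both set A samples had the lower ratio. For Hsp90aa1, 47.5% of 100-base windows were also found in other gene models, chiefly Gm12346, against 0% for Hsp90ab1, so the count of Hsp90aa1 and this ratio are uncertain to that extent.

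The partners of HSP70 had the highest log2 fold changes of the group, none of which passed the test. Dnajb1 encodes HSP40, a J-domain protein that hands substrates to HSP70 (chr8:83608193-83612653, plus strand). It was at 241, 375 and 487 CPM in young and 229, 987 and 1009 CPM in aged samples A, B and C. Aged B and C were above every young sample, while aged A was below all of them. The log2 fold change of Dnajb1 was 1.01 (SE 0.46, 95% interval -0.01 to 2.04), with the lowest adjusted p of the 10 genes (edgeR, 0.149).

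Dnaja1, another J-domain partner of HSP70 (chr4:40722150-40737149, plus strand), was at 234, 238 and 543 CPM in young and 158, 753 and 911 CPM in aged samples A, B and C. Hsph1, which encodes the HSP110 nucleotide exchange factor (chr5:149614287-149636376, minus strand), was at 59.2, 190.4 and 389 CPM in young and 43.0, 773 and 715 CPM in aged samples. For both genes aged B and C were the highest samples and aged A the lowest. Other gene models held 14.8% of the windows of Dnaja1 and 0% of those of Hsph1 and Dnajb1. The log2 fold change was 0.85 for Dnaja1 (SE 0.53, edgeR adjusted p = 0.288) and 1.26 for Hsph1 (SE 0.84, 95% interval -0.60 to 3.12, edgeR adjusted p = 0.314). Hsph1 had the widest range of the group, and its mean log2 CPM in sets B and C exceeded that in set A by 3.15.

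The chaperonin genes were also lowest in set A. Hspd1, encoding HSP60 (chr1:55077835-55088243, minus strand), was at 112, 138 and 249.5 CPM in young and 58.3, 257 and 226 CPM in aged samples A, B and C. Hspe1, encoding its lid HSP10 (chr1:55088132-55091307, plus strand), was at 20.6, 21.9 and 47.4 CPM in young and 7.36, 28.5 and 27.8 CPM in aged samples. Young C was the highest sample for Hspe1 and close to aged B for Hspd1. The log2 fold changes were 0.11 for Hspd1 (SE 0.46, edgeR adjusted p = 0.885) and -0.49 for Hspe1 (SE 0.46, edgeR adjusted p = 0.478).

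Ratios of counts were set side by side between samples only, with no correction for transcript length. The ratio of Hspd1 to Hspe1 counts was 5.43, 6.30 and 5.27 in young and 7.90, 8.99 and 8.11 in aged samples A, B and C. All aged samples lay above all young samples, with means of 5.67 ± 0.56 in young and 8.34 ± 0.58 in aged samples (SD, n = 3), but the two-sided exact permutation test gave p = 0.1, the smallest it can give. It was 1 of 4 ratios computed, over which its Benjamini-Hochberg adjusted p was 0.4 and that of the HSP70 ratio 0.533, and its separation was noted after the values were seen. Of 100-base windows, 26.9% of Hspd1 and 20.4% of Hspe1 were also found in other gene models, chiefly Hspd1-ps3 and AC117239.2, and the part of this in the ratio was not tested.

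To order the levels of the 10 genes, CPM was divided by the length of the principal GENCODE transcript. In young samples Hspa1a was at 7681 ± 5394 CPM per kilobase and Hspa1b at 6997 ± 5063, followed by Hspa8 at 1439 ± 635, Hsp90ab1 at 468 ± 190 and Hsp90aa1 at 387 ± 203 (SD, n = 3). Dnajb1 was at 123 ± 41.1, Hspd1 at 68.7 ± 30.2, Dnaja1 at 60.1 ± 31.6, Hsph1 at 56.0 ± 43.7 and Hspe1 at 38.7 ± 19.5. Hspa1a and Hspa1b, the pair of HSP90 genes, and the run from Hspd1 to Hspe1 each held neighbours that differed by less than their SD. In aged samples the order was the same down to Dnajb1 except that Hspa1b (5873 ± 4364 CPM per kilobase) stood above Hspa1a (5735 ± 4164), and Hsph1 (134 ± 107) stood above Dnaja1 (108 ± 70.6) and Hspd1 (74.4 ± 44.0).

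Within each set the difference of aged and young samples was not the same. In set A, log2 CPM was lower in the aged sample for all 10 genes, by between 0.07 for Dnajb1 and 1.47 for Hspe1. In set B it was higher in the aged sample for 8 genes, up to 2.02 for Hsph1, and lower for Hspa1a and Hspa1b. In set C it was higher for Hspa8, Hsp90ab1, Hsph1, Dnajb1 and Dnaja1 and lower for the other 5. These are single pairs of samples and carry no test.

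The comparison was repeated without set A. This fit of 2 young against 2 aged samples was chosen after seeing that these genes were lowest in set A, and in it 3 of the 10 genes had an adjusted p under 0.05, a share near the 24.7% of all tested genes. Dnajb1 rose by a log2 fold change of 1.21 (SE 0.21, edgeR adjusted p = 0.00258), Hsph1 by 1.36 (SE 0.28, adjusted p = 0.0066) and Dnaja1 by 1.10 (SE 0.32, adjusted p = 0.0269). The other 7 did not pass, with 0.69 for Hspa8 (95% interval 0.12 to 1.25, edgeR adjusted p = 0.0736) and -0.42 for Hspa1a (95% interval -1.05 to 0.22, edgeR adjusted p = 0.315). When only aged sample A was left out, Dnajb1 and Dnaja1 passed, 2 of 10 genes against 11.3% of all tested genes.

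**Figure D4:**
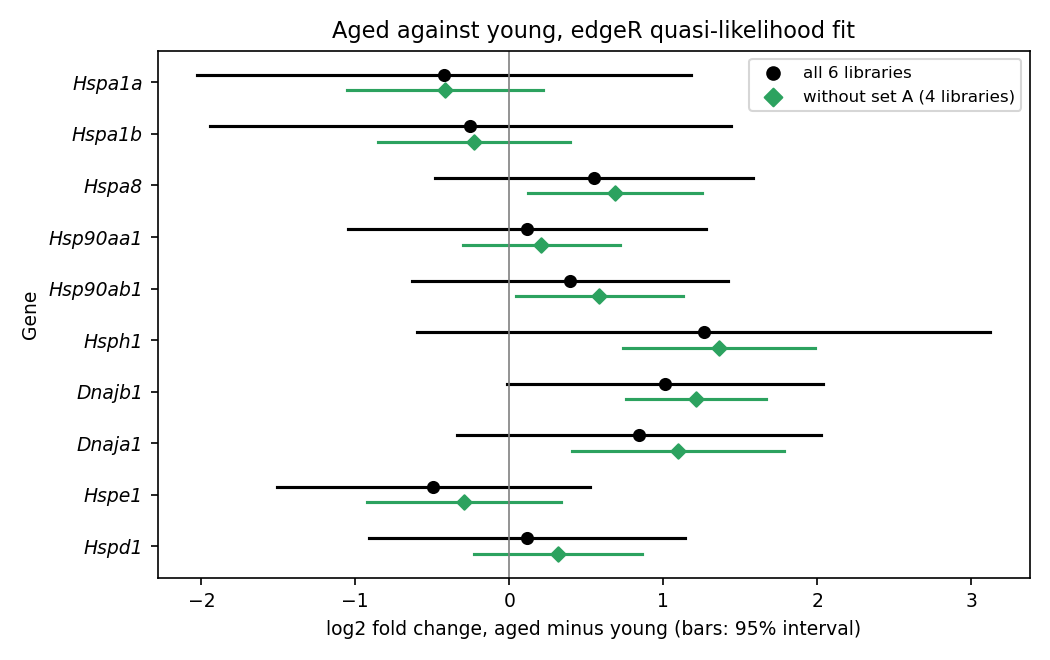
log2 fold change of aged against young samples (x axis) for each gene (y axis), with 95% intervals from the edgeR fit of all 6 libraries (black circles) and of the 4 libraries of sets B and C (green diamonds). All 10 black intervals include 0, and the green intervals of Hspa8, Hsp90ab1, Hsph1, Dnajb1 and Dnaja1 lie above 0, of which 3 passed the adjusted threshold.

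The size of the difference between sets was described for all genes as the mean log2 CPM of sets B and C minus that of set A. It ran from 1.28 (Hspe1) to 3.15 (Hsph1) over the 10 genes, with 2.73 for Hspa1a and 2.93 for Hspa1b. The 99th percentile of all tested genes was 1.276, and all 10 genes lay above it, Hspe1 only just at 1.282. This difference was defined after the 10 genes were seen to be lowest in set A. Their place among all genes is therefore a description and not a test. The median of all genes was close to 0.

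The other genes of the chaperone network were read from 10 lists with 100 tested genes. Of these 7 were higher and 13 lower in aged samples at an adjusted p under 0.05 (edgeR), where 9.73% of all tested genes were higher and 7.97% lower, with a median log2 fold change of -0.05, against -0.02 for all tested genes. Both set A samples lay below the other 4 for 16 of the 100 genes, against 5.75% of all tested genes, and 7 of the 100 lay above the 99th percentile of the difference between sets. The 7 included Hspb1, a small heat shock protein at 3.32, 37.4 and 68.6 CPM in young and 0.981, 45.1 and 21.7 CPM in aged samples A, B and C. Others of the 16, named after their values were seen, were Hspa1l, an HSP70 gene beside Hspa1a, Bag3, an exchange factor of HSP70, Stip1, which links HSP70 to HSP90, and Ahsa1, Ahsa2 and Chordc1, cochaperones of HSP90. Bag3 was at 126, 223 and 359 CPM in young and 146, 558 and 566 CPM in aged samples, and Chordc1 at 41.4, 51.0 and 82.5 CPM and 35.8, 236 and 200.4 CPM.

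The heat shock factors gave no call, nor did Hsbp1, which stands in the same list but encodes a binding protein of HSF1. Hsf1, which encodes the factor named above, was between 10.1 and 12.7 CPM in all 6 samples (log2 fold change 0.13, edgeR adjusted p = 0.671), and Hsf2 ran from 0.594 to 1.72 CPM. In all, 0 of 3 tested genes of this list passed, from Hsf2 at 0.78 to Hsbp1 at -0.37. In the small heat shock proteins 0 of 4 passed, from Cryab at -0.09 to Hspb11 at -0.74. In the TRiC chaperonin, which folds actin and tubulin, 0 of 8 passed, from Cct4 at 0.21 to Cct6a at -0.25. None of these lists had a gene at an adjusted p under 0.05 in either direction, where 17.7% of all tested genes passed.

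Among other HSP70 and HSP110 genes, 1 of 5 was higher in aged samples, Hspa2 at 0.95 (edgeR adjusted p = 0.013), while the highest value was 1.23 for Hspa4l (adjusted p = 0.066) and the lowest -0.48 for Hspa1l. Of 24 other J-domain genes, 2 were higher, Dnajb2 at 1.41 and Dnajc5 at 0.53. In the same list 3 were lower, Dnajc2 at -0.97, Dnajc9 at -0.76 and Dnajc24 at -0.70. Over all tested genes 9.73% were higher and 7.97% lower, which applies to each list of this paragraph. The lowest J-domain value was -0.98 for Dnajc17, which did not pass. Of 10 exchange factors and cochaperones of HSP70, 0 passed, from Bag3 at 0.84 to Bag4 at -0.75. Of 20 HSP90 cochaperones, Unc45a, which assists folding of myosin, was higher at 0.71, and Cdc37, which brings kinases to HSP90 (-0.49), Nudc (-0.60) and Rpap3 (-1.11) were lower. The highest value in that list was 1.44 for Chordc1 (edgeR adjusted p = 0.0854).

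Of 6 paralogs of HSP70 and HSP90 in organelles, 3 of the endoplasmic reticulum were higher in aged samples, against 9.73% of all tested genes. Hspa5, which encodes BiP, rose from 4767, 3221 and 5180.0 CPM in young to 4924, 13591 and 9749 CPM in aged samples A, B and C, a log2 fold change of 1.10 (edgeR adjusted p = 0.0484). Aged A lay within the range of the young samples for Hspa5. Hyou1, an exchange factor of BiP, rose by 1.48 and Hspa13 by 1.37, whereas Trap1, the HSP90 of mitochondria, fell by 0.78. Of 14 other mitochondrial chaperones and proteases 4 were lower, namely Hscb (-1.42), Htra2 (-1.12), Clpp (-0.90) and Dnajc19 (-0.85), and 0 were higher, up to Lonp1 at 0.14. Over all tested genes, 7.97% were lower and 9.73% higher. In prefoldin, which delivers substrates to TRiC, Pfdn1 and Pfdn4 were lower at -0.76 each and the other 4 of 6 genes did not pass, up to Vbp1 at 0.20.

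A list of genes that tissue dissociation can induce, immediate early genes among them, was read beside the heat shock genes. Of 28 genes in that list, 8 were higher and 0 lower in aged samples (edgeR adjusted p under 0.05), against 9.73% higher and 7.97% lower over all tested genes, with a median log2 fold change of 0.29, from Socs3 at 1.73 to Atf3 at -1.07. The others that were higher were Nfkbia (1.01), Btg1 (0.90), Ier3 (0.87), Klf6 (0.79), Cebpb (0.76), Cebpd (0.71) and Rhob (0.63). Both set A samples lay below the other 4 for 1 of the 28 genes, against 5.75% of all tested genes. That gene was Jun, at 602, 691 and 688 CPM in young and 672, 700.3 and 794 CPM in aged samples A, B and C. The mean log2 CPM of sets B and C minus that of set A was 0.17 for Jun, 0.73 for Atf3 and 0.93 for Nr4a1, the highest of the list. Fos was at 1923, 2789 and 1556 CPM in young and 1045, 1455 and 1893 CPM in aged samples A, B and C, so that its order differed from that of the heat shock genes. Jun (0.13), Egr1 (0.82) and Fos (-0.51) did not pass the test of age. The list held none of the 10 heat shock genes, so its values do not stand for theirs. Whether handling of the tissue moved the heat shock genes was not tested.

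Markers of other cells were summed in each sample, since in bulk RNA a change in the share of a cell type and in RNA per cell cannot be told apart. Of 10 macrophage markers all were present, with summed CPM from 32020 to 46944 in young and from 22591 to 26996 in aged samples, of which Lyz2 alone made 24157 to 38843 and 16240 to 21389 CPM. Itgam was higher in aged samples (log2 fold change 0.99), Adgre1 (-0.69), C1qa (-1.09) and C1qb (-1.04) were lower, and the other 6 did not pass the edgeR test. Over all tested genes, 9.73% were higher and 7.97% lower in aged samples. Neutrophil markers, 9 of 10 of them in the table, summed to between 499 and 905 CPM in young and 680 and 1251 CPM in aged samples. Of these Cd177 (1.62), Cxcr2 (1.13) and Retnlg (0.85) were higher in aged samples. The others did not pass, from Mmp8 at 0.50 to Ltf at -0.31. The sorting panel of the study did not exclude Ly6G+ cells, and its methods state that a few neutrophils may have been sorted as well. Mast cell markers summed to 25.8, 16.7 and 8.59 CPM in young and 23.0, 0.764 and 0.679 CPM in aged samples A, B and C, so set A was the highest of each age. Erythroid markers summed to 118, 378 and 328 CPM in young and 32.9, 120.4 and 82.1 CPM in aged samples, so set A was the lowest of each age, as it was for the heat shock genes. Of the 4 erythroid markers 3 were lower in aged samples, against 7.97% of all tested genes. They were Hba-a1 (log2 fold change -1.73, edgeR adjusted p = 0.0231), Hbb-bs (-1.80, edgeR adjusted p = 0.0339) and Hbb-bt (-2.15, edgeR adjusted p = 0.0384). Endothelial markers summed to 11.8 to 12.6 CPM in young and 25.9 to 31.1 CPM in aged samples, with no overlap. Of these Pecam1, which myeloid cells also express, was higher (log2 fold change 1.69, edgeR adjusted p = 0.0022). Kdr (-0.40, edgeR adjusted p = 0.634) and Vwf (-0.38, edgeR adjusted p = 0.612) lay below 0 and did not pass. Keratinocyte markers reached 113 CPM in aged sample B and at most 1.96 CPM elsewhere, and fibroblast markers reached 119 CPM in aged sample B and 12.4 to 41.0 CPM elsewhere. Markers of T and NK cells summed to at most 3.71 CPM and those of B cells to at most 0.764 CPM in any sample. In the methods of the study the sort also required CD45 and CD11b, a gate that should leave out keratinocytes, fibroblasts, endothelial cells and red cells. The part of these cells in the differences between sets or ages was not tested.

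The genes whose log2 CPM followed the heat shock genes most closely were found by Pearson's r over the 6 samples, given as a description because set A stood apart and the points share their libraries. For summed Hspa1a and Hspa1b these were E330020D12Rik (r = 0.994, at under 1 CPM in every sample), Hspa1l (0.989), Rinl (0.989), Pikfyve (0.986) and Trnt1 (0.986). For the mean of Hspd1 and Hspe1 they included Ahsa1 (0.993), Zfp60 (0.990), St13 (0.988) and Dnajc7 (0.986). Hspa1l was at 2.60, 8.45 and 11.1 CPM in young and 1.54, 6.05 and 8.15 CPM in aged samples A, B and C. St13, Dnajc7 and Ahsa1 belong to the cochaperones of HSP70 and HSP90.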

How the data were processed

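RNA of sorted macrophages (3 young and 3 aged samples) was amplified with SMART-Seq v4 and sequenced as paired reads. The authors aligned reads with STAR 2.7.3a to mm10, quantified Ensembl release 102 transcripts in Partek Flow and deposited expected counts per gene, with a row total of at least 10; use of strand is not given in the sources used here. A second table the authors deposited, with a normalised copy of the counts and their own fold changes and p-values, was not used. Expected counts were rounded to whole numbers, where the design had assumed plain counts. Aged and young samples were compared with edgeR 4.0.16 (R 4.3.3), TMM, filterByExpr, the quasi-likelihood test and Benjamini-Hochberg adjustment over 11878 genes, and log2 CPM used a prior count of 2. DESeq2 1.42.0, limma-voom (limma 3.58.1), other scalings and filters, a replicate block and leaving samples out were alternatives. The procedure was tested on simulated data. Library totals were 15270103 to 17927483 counts. Samples of the same age differed from each other by more than sampling noise, and all 6 samples were counted separately.

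All 10 genes are named with every sample; of each pathway list, the genes that passed and the highest and lowest are named, with the 5 most similar genes, apart from a gene that is not reported here. The genes and lists were chosen with earlier results of these data known. Gene coordinates are those of GENCODE M21, of the same build, which agree in start with the deposited table, whose ends lie 1 base further for all 10 genes. Promoter sequences are from RefSeq, GRCm38.p6, and plots were drawn with matplotlib.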

Additional observations from a re-analysis of the deposited data

How the results depend on the processing

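Without set A, 3 of the 10 heat shock genes had an adjusted p under 0.05, against 0 with all samples. Over all tested genes the share was 24.7% without set A and 17.7% with all samples. Leaving out 1 sample at a time gave 0 to 2 of the 10 genes. The 2 came without aged sample A, where 11.3% of all tested genes passed. Of genes past an adjusted p of 0.05 and a 2-fold change, 1044 were called with all samples and 1554 without set A. The count was 213 to 1503 when 1 sample was left out (fewest without young C, most without young A). At an adjusted p under 0.05 alone the count was 2103, 218 to 2702 with 1 sample left out, 2958 without set A, and 3646 with limma-voom. The sign of the log2 fold change held in all 13 alternatives for Hspa8, Hsp90ab1, Hsph1, Dnajb1, Dnaja1 and Hspe1, although the value of Hspe1 was -3e-04 without young C, in 12 of 14 for Hspa1a and Hspa1b, and in 8 of 13 for Hsp90aa1 and Hspd1. The difference in the share of counts taken by the 10 genes, -1.06 percentage points, ran from -2.91 to 0.544 with 1 sample left out. With the set letter as a replicate block, 1056 genes were called, 2114 had an adjusted p under 0.05 and 0 of the 10 heat shock genes did, with Hspa1a and Dnajb1 at an unadjusted p under 0.05. The log2 fold change of Hspa1a was -0.44 in that fit, and its adjusted p went from 0.712 without the block to 0.0958. For Hspa1b the log2 fold change was -0.34, and the adjusted p went from 0.843 to 0.196. The results for these 2 genes therefore depend on whether the letter is used. Samples with the same letter deviated together with a correlation of 0.181 for A, -0.02 for B and 0.114 for C. The highest correlation with another letter was -0.02, 0.138 and 0.0468 in the same order. Sets A and C thus correlated best with their own letter and B did not. The letters were not taken to pair the samples, and these values do not settle whether they do. The causes of these changes were not tested. The counts of the 10 genes were at least 105 in every sample. Their intervals were narrower without set A, where the standard error of Hspa1a was 0.29 against 0.72.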
